A study of Mus musculus with 8 samples.

Results

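The nuclear-encoded subunits of the oxidative phosphorylation machinery were examined in pancreatic stellate cells (PSCs), the fibroblast-like cells that store vitamin A in the healthy pancreas and give rise to part of the cancer-associated fibroblasts of pancreatic tumors. Members were chosen by gene symbol alone, as names starting with Nduf and a subunit letter and number, the 4 Sdh subunits, names starting with Uqcr, Cyc1, the Cox4 to Cox8 families and names starting with Atp5. This gave 81 members of the 12160 genes in the count table, with 35 in complex I, 4 in complex II, 8 in complex III, 17 in complex IV and 17 in complex V. Ndufa4 and its paralog Ndufa4l2 were placed with complex IV, in which the NDUFA4 protein is found, and 1 complex I symbol, Ndufs5-ps, names a pseudogene.

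Immortalized mouse PSCs were grown in all 8 samples in growth factor reduced Matrigel, a basement membrane gel, first with growth medium during 4 days and then during 4 further days with the medium under test. In 3 samples this was medium conditioned by organoids of KPC pancreatic cancer cells, which come from tumors of a genetically engineered mouse model, with Brca2 silenced by shRNA (shBrca2-CM), and in 3 samples it was medium from KPC organoids with a non-targeting shRNA (shControl-CM). In the 2 remaining samples the control is named DMEM in the sample titles and the PSCs' own conditioned medium in the recorded treatment, and it is called growth medium here. By the paper's methods, the organoid medium was conditioned at a lower serum level than that of growth medium. Serum level, and any use of the medium by cells, cannot be told apart from cancer cell signals in the comparisons with growth medium. The knockdown lies in the cancer cells that conditioned the medium and not in the PSCs whose RNA was measured, so the PSC libraries hold no check of it, and the PSCs are a single immortalized line.

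The respiratory chain sits in the inner mitochondrial membrane. Complex I takes electrons from NADH and complex II takes them from succinate, ubiquinone carries them to complex III, and cytochrome c carries them to complex IV, which hands them to oxygen. Complexes I, III and IV pump protons, and complex V, the ATP synthase, uses the returning protons to make ATP. Most subunits are encoded in the nucleus and the remainder in mitochondrial DNA. The 13 mitochondrially encoded subunits were sought by symbol and none was in the count table, so they could not be analysed here.

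Promoter sequences from RefSeq (GRCm38.p6, the assembly also named mm10) were held for 65 of the 81 members, and were searched on both strands for short motifs of factors known for respiratory genes. The NRF1 motif GCGCATGC was in 10 of the 65 members (15.4%) and in 3.05% of the promoters of all 27025 genes, the YY1 motif AAGATGGC was in 10 members (15.4%) and in 3.19% of all promoters, the ETS motif CCGGAAGT of GABP was in 5 members (7.69%) and in 4.31% of all promoters, and the ESRRA motif TCAAGGTCA was in 2 members (3.08%) and in 0.466% of all promoters. Among the 9638 promoters of genes in the count table, these shares were 6.01% for NRF1, 5.22% for YY1, 9.16% for ETS and 0.311% for ESRRA. The 4 stretches below run 5′ to 3′ on the gene's strand across its annotated start, with matches to these motifs in capitals. They are shown because Sdhd and Atp5g3 are the 2 members with the ESRRA letters and both were lower with either conditioned medium, Cox6a1 was lower and holds overlapping NRF1 matches, and Cox7a2 had the largest increase among members above 50 CPM in growth medium and holds no match. Sdhd lies at chr9:50603800-50604099, Atp5g3 at chr2:73911277-73911576, Cox6a1 at chr5:115348909-115349208 and Cox7a2 at chr9:79759804-79760103, all on the minus strand.
Sdhd: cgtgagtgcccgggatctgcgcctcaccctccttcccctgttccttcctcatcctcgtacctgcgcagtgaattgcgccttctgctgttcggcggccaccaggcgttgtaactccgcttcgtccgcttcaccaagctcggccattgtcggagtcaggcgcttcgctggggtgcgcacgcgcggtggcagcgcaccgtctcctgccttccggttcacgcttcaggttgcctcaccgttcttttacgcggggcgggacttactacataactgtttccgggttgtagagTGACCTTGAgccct
Atp5g3: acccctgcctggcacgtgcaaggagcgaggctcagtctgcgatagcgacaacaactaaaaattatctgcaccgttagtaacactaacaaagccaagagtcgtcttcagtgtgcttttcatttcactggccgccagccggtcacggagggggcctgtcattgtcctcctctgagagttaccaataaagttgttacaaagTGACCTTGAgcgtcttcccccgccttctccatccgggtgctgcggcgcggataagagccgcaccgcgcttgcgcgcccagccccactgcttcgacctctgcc
Cox6a1: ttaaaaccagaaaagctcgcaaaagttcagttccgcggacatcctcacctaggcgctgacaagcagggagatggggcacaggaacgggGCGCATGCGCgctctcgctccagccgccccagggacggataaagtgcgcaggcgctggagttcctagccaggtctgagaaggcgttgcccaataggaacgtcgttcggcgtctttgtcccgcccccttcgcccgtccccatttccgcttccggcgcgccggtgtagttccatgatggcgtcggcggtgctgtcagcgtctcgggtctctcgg
Cox7a2: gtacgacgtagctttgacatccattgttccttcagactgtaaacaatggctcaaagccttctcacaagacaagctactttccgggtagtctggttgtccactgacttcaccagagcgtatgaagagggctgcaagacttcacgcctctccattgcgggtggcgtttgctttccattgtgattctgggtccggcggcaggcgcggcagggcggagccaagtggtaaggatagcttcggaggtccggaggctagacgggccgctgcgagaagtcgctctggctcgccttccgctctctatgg

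A match is a run of letters and not evidence that a factor was bound. Among the members with a promoter sequence, the NRF1 letters were in 2 of 12 members called higher, in 2 of 11 called lower and in 6 of 42 not called under shControl-CM against growth medium. In the same order the YY1 letters were in 2, 0 and 8 members, the ETS letters in 0, 0 and 5, and the ESRRA letters in 0, 2 and 0. These counts are too small to compare.

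Values are CPM, the counts of a gene relative to the TMM-scaled total of its library, from MARS-seq libraries that read the 3′ end of each transcript, so that a value does not scale with transcript length. Levels were compared between libraries and not between genes. Library totals ranged from 655996 to 1095534 under shBrca2-CM, 1093609 to 1624392 under shControl-CM, and 4623846 and 5476988 in growth medium, so depth and the growth medium group cannot be told apart in the comparisons against growth medium. The 10 mesenchymal markers were all detected and summed to between 3120 and 6489 CPM, lowest under shBrca2-CM (3120 to 3291 CPM) and highest in growth medium (5428 to 6489 CPM). Col1a1, Col1a2, Col3a1 and Vim were called lower and Dcn and Thy1 higher under both conditioned media against growth medium, Lum was called higher under shControl-CM and Des and Pdgfra under shBrca2-CM, and between the conditioned media Pdgfra was called higher and Dcn and Lum lower under shBrca2-CM. The part of these and the following markers in the results was not tested. Of the other markers sought, only 2 of 8 epithelial, 2 of 6 immune and 2 of 4 endothelial genes were in the count table. The epithelial markers Krt18 and Krt19 summed to 21.7 to 31.1 CPM under shBrca2-CM, 7.69 to 21.1 CPM under shControl-CM, against 26.6 and 27.5 CPM in growth medium. Krt18 was called higher and Krt19 lower under both conditioned media against growth medium, and Krt19 was called higher under shBrca2-CM against shControl-CM (log2 fold change 2.12). The immune markers Cd68 and Lyz2 summed to 13.0 to 23.1 CPM in the conditioned medium libraries, against 7.52 and 9.04 CPM in growth medium, with Cd68 called higher under both, and the endothelial markers Kdr and Tek to 0 to 3.48 CPM. In bulk RNA, fewer cells of a type and less RNA per cell cannot be told apart. Growth medium had 2 samples, and n was 3 for each conditioned medium.

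All 81 members had at least 10 counts in each comparison and were tested. Mean levels reached 100 CPM or more in all 3 groups for 58 members and stayed under 10 CPM in all 3 groups for 4. A gene is called changed when its Benjamini-Hochberg adjusted p-value from edgeR's quasi-likelihood test was under 0.1, its log2 fold change was over 0.5 in size and its mean normalized count was over 5. By this rule 40 members were called in at least 1 comparison and 41 in none.

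With shControl-CM against growth medium, which asks how PSCs respond to the medium of cancer cells with intact Brca2, members moved both ways. Of the 81 members, 18 were called higher and 11 lower, or 35.8%, where 37.1% of the 12086 genes tested were called (18.2% higher and 18.9% lower). With shBrca2-CM against the same growth medium samples, 14 members were called higher and 20 lower, or 42.0%, where 37.8% of 12049 genes were called (18.6% higher and 19.2% lower). How the share of members stood to that of all genes depended on the method. With total counts in place of TMM, 40.7% of members and 37% of all genes were called under shControl-CM, with more members lower than higher. With DESeq2's likelihood ratio test 37% of members and 29% of all genes were called under shControl-CM, and 42% and 30.4% under shBrca2-CM, while with edgeR's filterByExpr, a stricter filter on low counts, these were 39.7% and 44.7%, and 45.5% and 47.3%. The median log2 fold change of the members was -0.03 under shControl-CM and 0.02 under shBrca2-CM, and that of all genes was -0.10 and -0.05. Groups did not overlap for 49 members (60.5%, against 59.9% of all genes) under shControl-CM and for 57 members (70.4%, against 57.4%) under shBrca2-CM. Both comparisons share the 2 growth medium samples, and their values are therefore given side by side.

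**Figure D1:**
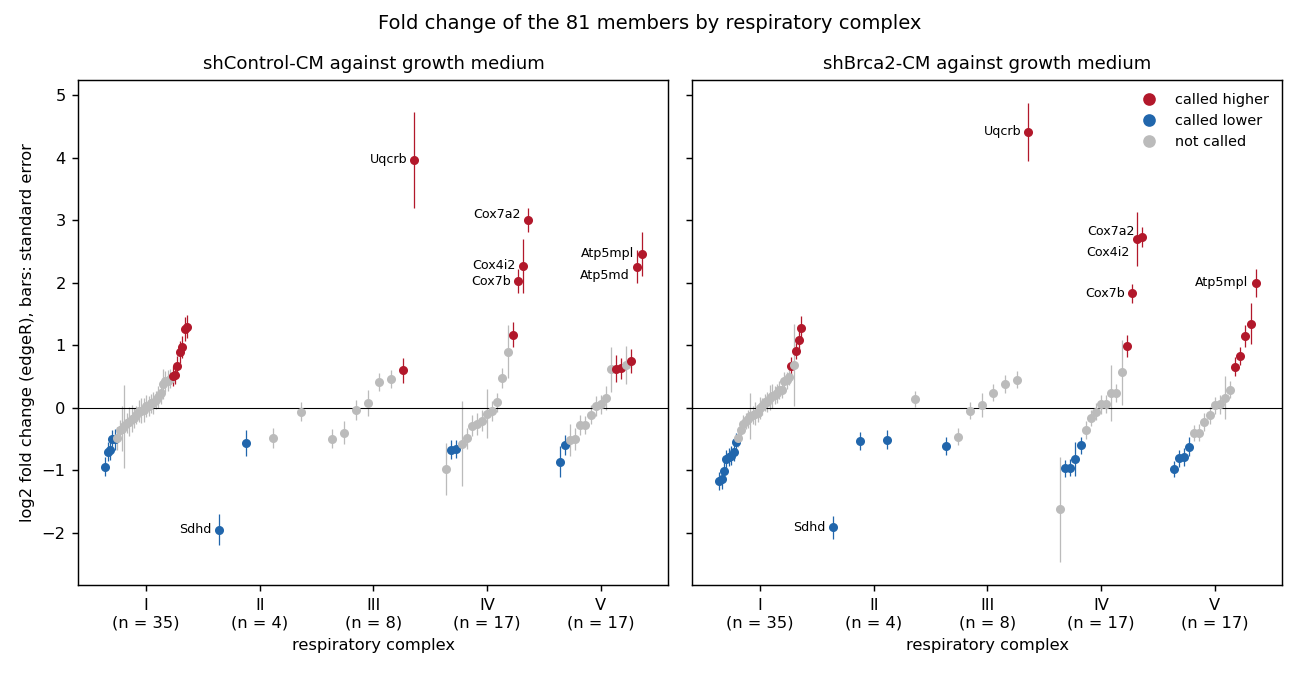
Log2 fold change of each of the 81 members against growth medium, ordered within each respiratory complex, under shControl-CM on the left and shBrca2-CM on the right. Points are edgeR estimates and bars their standard errors. Red points were called higher and blue points lower, and each complex except complex II holds members called in both directions in the right panel, with the widest range from Sdhd (-1.95 and -1.91) to Uqcrb (3.96 and 4.41).

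All 81 members together took 2.80% to 2.99% of the counts under shBrca2-CM, 2.80% to 2.95% under shControl-CM and 3.06% to 3.18% in growth medium. On the TMM-scaled CPM used elsewhere they summed to 27187 to 28831 CPM under shBrca2-CM, 28615 to 32520 CPM under shControl-CM, against 30282 and 30379 CPM in growth medium, so that shControl-CM lay below growth medium as a share of the counts and around it in CPM. Complex I summed to 10041 to 10738 CPM under shBrca2-CM, 10593 to 12507 CPM under shControl-CM, against 10659 and 10797 CPM in growth medium, so that the groups overlapped. Complex II summed to 981 to 1079 CPM under shBrca2-CM, 924 to 1006 CPM under shControl-CM, against 1240 and 1303 CPM in growth medium, so that both conditioned media lay below growth medium. Complex IV summed to 6061 to 6482 CPM under shBrca2-CM, 6284 to 7369 CPM under shControl-CM, against 7072 and 7117 CPM in growth medium, so that the shBrca2-CM libraries lay below growth medium. Complex III summed to 2672 to 2940 CPM under shBrca2-CM, 2849 to 3105 CPM under shControl-CM, against 2685 and 2802 CPM in growth medium. Complex V summed to 7125 to 7723 CPM under shBrca2-CM, below the 7883 to 8665 CPM under shControl-CM and the 8308 and 8678 CPM in growth medium. As a share of the counts complex V took 0.733% to 0.805% under shBrca2-CM, 0.773% to 0.804% under shControl-CM, against 0.873% in both growth medium libraries, so that the conditioned media were apart from each other only in TMM-scaled CPM. Complex IV, as a share of the counts, was below growth medium under both conditioned media, and complex II was so on both scales. No test was run on these sums.

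**Figure D2:**
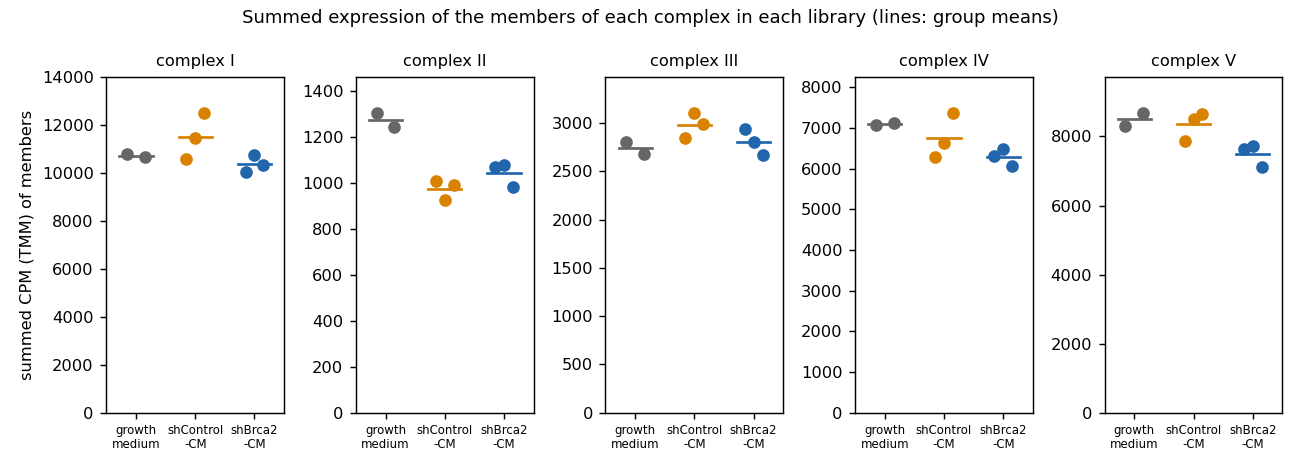
Summed CPM of the members of each complex in each library, with a point per library and a line at the group mean; each panel has its own axis from 0. Complex II lies lower under both conditioned media, at 924 to 1079 CPM against 1240 and 1303 CPM in growth medium, and complexes IV and V lie lower under shBrca2-CM than in growth medium.

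In complex I, the nuclear-encoded core subunits carry the flavin and the iron-sulfur clusters. With shControl-CM 4 of the 7 core subunits rose and none fell (57.1% called, against 37.1% of all genes and 18.2% in the higher direction), and under shBrca2-CM 2 rose and none fell (28.6% called, against 37.8% of all genes and 18.6% in the higher direction). Ndufs1, the largest iron-sulfur subunit, was at 68.0, 79.6 and 70.1 CPM under shBrca2-CM, 64.1, 75.4 and 77.4 CPM under shControl-CM, against 30.9 and 29.0 CPM in growth medium. All 6 conditioned medium libraries lay above both growth medium libraries. Its log2 fold change was 1.26 ± 0.19 (SE, edgeR, adjusted p = 0.00117) under shControl-CM and 1.27 ± 0.19 (edgeR, adjusted p = 1.13e-07) under shBrca2-CM.

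Ndufv1, which binds NADH and the flavin, was at 324, 291 and 384 CPM under shBrca2-CM, 338, 395 and 456 CPM under shControl-CM, against 249 and 248 CPM in growth medium. It was called under shControl-CM (log2 fold change 0.66 ± 0.17, edgeR, adjusted p = 0.0136) and stayed under the fold threshold under shBrca2-CM (0.43 ± 0.14, adjusted p = 0.0133); whether these effects differ is the comparison of the 2 conditioned media, in which its adjusted p was 0.583. Ndufs7 was called under shControl-CM (0.51 ± 0.17, adjusted p = 0.0388), just past the fold threshold. The call of Ndufv1 was lost without growth medium replicate 1 (adjusted p = 0.112) or 2 (adjusted p = 0.107), and that of Ndufs7 without replicate 1 (adjusted p = 0.194) or 2 (adjusted p = 0.177) of growth medium and, with a log2 fold change of 0.38, without shControl-CM replicate 3. Of the 7 core subunits, 3 were not called in any comparison.

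Of the 27 supernumerary subunits of complex I, which surround the core, 3 rose and 5 fell under shControl-CM, and 2 rose and 8 fell under shBrca2-CM. These were 29.6% and 37.0% called, below and near the 37.1% and 37.8% of all genes. Ndufa5, a subunit of the matrix arm, was at 286, 276 and 281 CPM under shBrca2-CM, 301, 394 and 289 CPM under shControl-CM, against 131 and 134 CPM in growth medium. It rose by 1.30 ± 0.18 under shControl-CM (edgeR, adjusted p = 0.000658) and by 1.09 ± 0.15 under shBrca2-CM (adjusted p = 1.02e-08), with no library of either conditioned medium near the growth medium libraries.

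Members of the membrane arm were among those that fell. Ndufb11 was at 295, 365 and 342 CPM under shBrca2-CM, 313, 397 and 351 CPM under shControl-CM, against 682 and 667 CPM in growth medium. Every conditioned medium library was lower than both growth medium libraries, and the log2 fold change was -0.94 ± 0.15 under shControl-CM (edgeR, adjusted p = 0.00162) and -1.01 ± 0.14 under shBrca2-CM (adjusted p = 1.32e-08). A near-identical copy of its transcript end lies in an annotated transcript of another gene, so its counts are uncertain. Ndufb6 was at 171, 224 and 196 CPM under shBrca2-CM, 243, 297 and 283 CPM under shControl-CM, against 447 and 439 CPM in growth medium, with the 3 groups in that order and without overlap. It fell by 0.70 ± 0.15 under shControl-CM (adjusted p = 0.00658) and fell by 1.16 ± 0.14 under shBrca2-CM (adjusted p = 9.68e-10); between the conditioned media its adjusted p was 0.171. Ndufa8, a subunit on the intermembrane space side, fell by 0.67 ± 0.16 under shControl-CM (adjusted p = 0.00967) and fell by 0.71 ± 0.15 under shBrca2-CM (adjusted p = 7.94e-05). Ndufb2 fell by 0.82 ± 0.15 under shBrca2-CM (adjusted p = 4.79e-06). With shControl-CM its log2 fold change was -0.50 ± 0.17 (adjusted p = 0.0433), just past the fold threshold, and leaving out shControl-CM replicate 1 (-0.40) or 2 (-0.47), or growth medium replicate 1 (adjusted p = 0.194) or 2 (adjusted p = 0.195), ended that call.

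Complex II, succinate dehydrogenase, also works in the tricarboxylic acid cycle and is encoded in the nucleus in full. No member was called higher against growth medium, 2 of 4 fell under shControl-CM and 3 of 4 fell under shBrca2-CM, where 18.9% and 19.2% of all genes were called lower. Sdhd, the membrane anchor that holds the complex in place with Sdhc, was at 46.3, 47.3 and 28.4 CPM under shBrca2-CM, 52.5, 36.7 and 25.8 CPM under shControl-CM, against 144 and 153 CPM in growth medium. The lowest growth medium library lay far above the highest conditioned medium library. Its log2 fold change was -1.95 ± 0.25 under shControl-CM (edgeR, adjusted p = 0.000375) and -1.91 ± 0.19 under shBrca2-CM (adjusted p = 5.46e-13), the lowest of all members called in each comparison.

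Sdhc, the other anchor, was at 333, 306 and 268 CPM under shBrca2-CM, 312, 298 and 331 CPM under shControl-CM, against 493 and 380 CPM in growth medium. It fell by 0.53 ± 0.14 under shBrca2-CM (adjusted p = 0.00209) and had a log2 fold change of -0.48 ± 0.16 under shControl-CM (adjusted p = 0.043), under the fold threshold. Sdha, the flavoprotein that oxidizes succinate, was at 92.6, 102 and 100.3 CPM under shBrca2-CM, 115, 101 and 69.3 CPM under shControl-CM, against 136 and 144 CPM in growth medium, and was called lower under shControl-CM (-0.57 ± 0.21, adjusted p = 0.0652) and under shBrca2-CM (-0.51 ± 0.16, adjusted p = 0.00684). Both calls of Sdha and that of Sdhc were near the thresholds. With shControl-CM, Sdha was lost without growth medium replicate 1 (adjusted p = 0.229) or 2 (adjusted p = 0.267) and without shControl-CM replicate 2 (adjusted p = 0.143) or 3 (adjusted p = 0.121). With shBrca2-CM, Sdha was lost without shBrca2-CM replicate 1 (log2 fold change -0.48) or growth medium replicate 2 (-0.46), and Sdhc without shBrca2-CM replicate 3 (-0.45) or growth medium replicate 1 (-0.33). Sdhb, the iron-sulfur subunit, was not called, at 584 to 623 CPM under shBrca2-CM, 488 to 565 CPM under shControl-CM, against 530 and 562 CPM in growth medium.

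**Figure D3:**
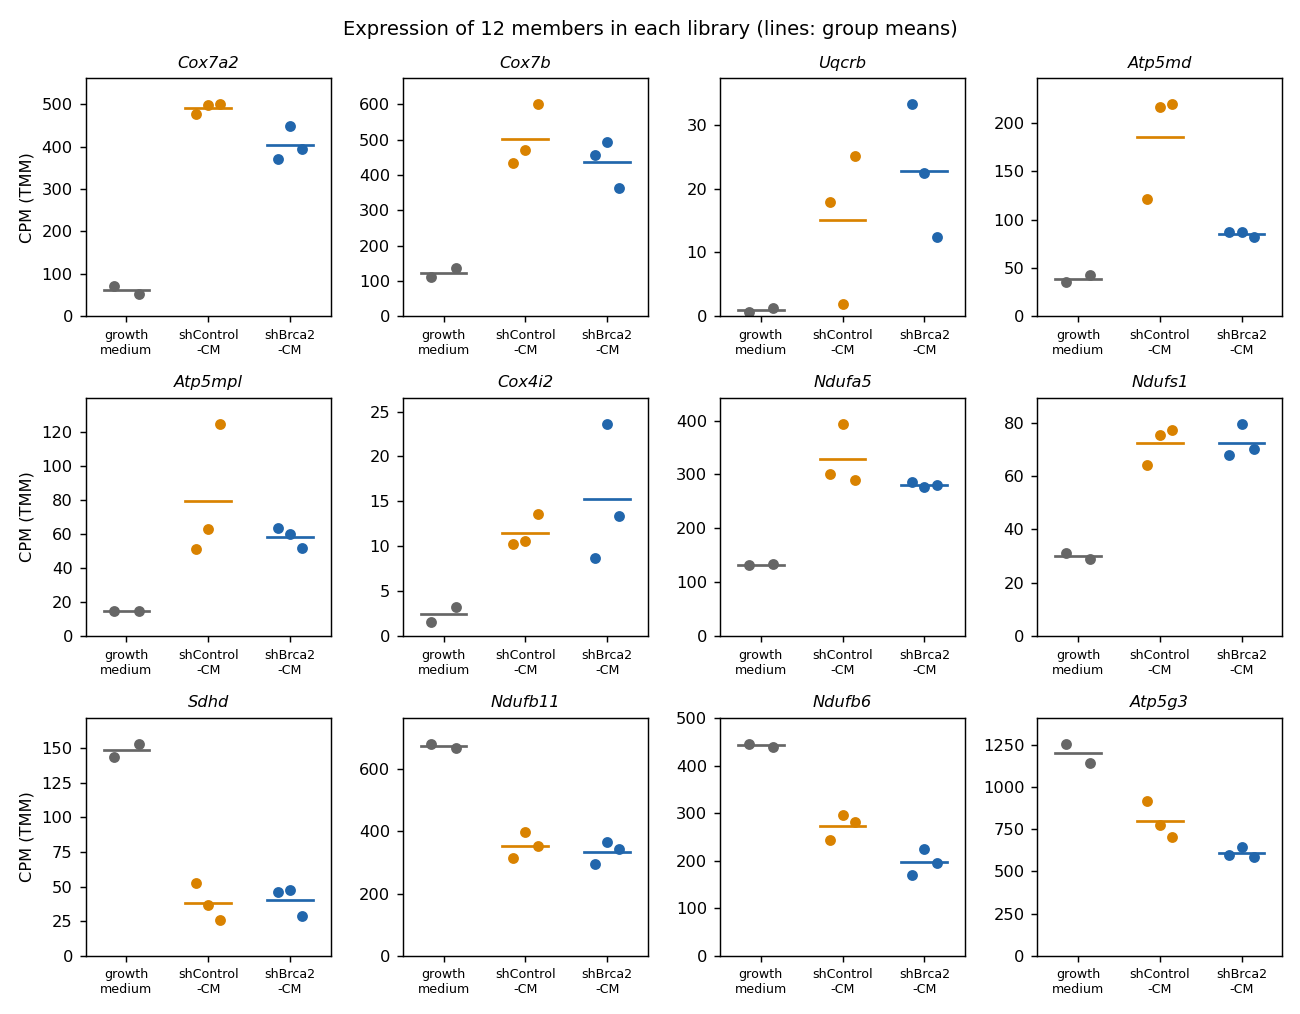
CPM of 12 members in each library, with a point per library, a line at the group mean and an axis from 0 in each panel. Cox7a2, Cox7b, Ndufa5 and Ndufs1 are low in both growth medium libraries and high in all 6 conditioned medium libraries, Sdhd, Ndufb11, Ndufb6 and Atp5g3 show the opposite order, and Atp5md is higher under shControl-CM (121 to 220 CPM) than under shBrca2-CM (81.7 to 87.1 CPM).

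In complex III, the largest change was in a member with few counts. Uqcrb, a small subunit near the ubiquinone site, had 23, 18 and 14 counts under shBrca2-CM, 28, 2 and 37 counts under shControl-CM, against 4 and 6 counts in growth medium, although the growth medium libraries were the deepest. This corresponds to 33.3, 22.4 and 12.4 CPM, 17.9, 1.93 and 25.1 CPM, and 0.695 and 1.29 CPM. All 6 conditioned medium libraries were above both growth medium libraries, but shControl-CM replicate 2 was above the higher of these only by 1.93 against 1.29 CPM. The log2 fold change was 3.96 ± 0.77 under shControl-CM (edgeR, adjusted p = 0.00387), lost without growth medium replicate 1 (3.54, adjusted p = 0.105), and 4.41 ± 0.46 under shBrca2-CM (adjusted p = 7.53e-12). The end of its transcript has 2 near-identical copies in annotated transcripts of other genes, so the level of Uqcrb itself is uncertain.

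The subunits that carry the electrons in complex III were lower against growth medium or not called. Cyc1, cytochrome c1, was at 477, 422 and 443 CPM under shBrca2-CM, 448, 470 and 407 CPM under shControl-CM, against 677 and 557 CPM in growth medium. Its log2 fold change was -0.49 ± 0.16 (adjusted p = 0.0368) under shControl-CM and -0.46 ± 0.14 (adjusted p = 0.00513) under shBrca2-CM, so that it passed the p threshold and not the fold threshold in both. Uqcrfs1, the Rieske iron-sulfur protein, was at 213, 195 and 178 CPM under shBrca2-CM, 254, 248 and 179 CPM under shControl-CM, against 303 and 291 CPM in growth medium, and fell by 0.61 ± 0.14 under shBrca2-CM (edgeR, adjusted p = 0.000456). With shControl-CM its adjusted p was 0.12. Uqcrc1, a core protein of the matrix side, was called higher under shControl-CM (0.60 ± 0.20, adjusted p = 0.0436) and had 0.37 ± 0.14 under shBrca2-CM (adjusted p = 0.0318). The call of Uqcrc1 was lost without growth medium replicate 1 (adjusted p = 0.301) or 2 (adjusted p = 0.113) and without shControl-CM replicate 2 (adjusted p = 0.127) or 3 (log2 fold change 0.43). Uqcrc2 was not called in any comparison.

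Complex IV, cytochrome c oxidase, held the largest increases among members above 50 CPM in growth medium. Cox7a2, the form of subunit VIIa found in most tissues, was at 372, 449 and 394 CPM under shBrca2-CM, 477, 498 and 501 CPM under shControl-CM, against 70.7 and 51.4 CPM in growth medium. The lowest conditioned medium library was far above both growth medium libraries. Its log2 fold change was 2.9996 ± 0.19 under shControl-CM (edgeR, adjusted p = 4.69e-06) and 2.73 ± 0.16 under shBrca2-CM (adjusted p = 8.17e-22). Cox7b, another small membrane subunit, was at 456, 494 and 362 CPM under shBrca2-CM, 435, 472 and 601 CPM under shControl-CM, against 109.8 and 136 CPM in growth medium. It rose by 2.02 ± 0.19 under shControl-CM (adjusted p = 7.61e-05) and by 1.83 ± 0.16 under shBrca2-CM (adjusted p = 3.62e-15). Ndufa4 was at 99.8, 87.1 and 89.7 CPM under shBrca2-CM, 95.5, 106 and 113 CPM under shControl-CM, against 39.5 and 53.7 CPM in growth medium, and rose by 1.17 ± 0.20 (adjusted p = 0.00189) and 0.99 ± 0.18 (adjusted p = 6.73e-06).

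Other subunits of the same complex fell. Cox6a1, the form of subunit VIa found in most tissues, was at 827, 927 and 952 CPM under shBrca2-CM, 975, 1181 and 1199 CPM under shControl-CM, against 1772 and 1769 CPM in growth medium, without overlap between any 2 groups. It fell by 0.67 ± 0.15 under shControl-CM (edgeR, adjusted p = 0.00855) and fell by 0.97 ± 0.13 under shBrca2-CM (adjusted p = 7.29e-09). Cox5a was at 298, 353 and 323 CPM under shBrca2-CM, 435, 391 and 381 CPM under shControl-CM, against 668 and 594 CPM in growth medium, and fell by 0.66 ± 0.15 (adjusted p = 0.00856) and fell by 0.96 ± 0.14 (adjusted p = 5.95e-08). The call of Cox5a under shControl-CM was lost without growth medium replicate 1 (adjusted p = 0.111). Cox4i1, Cox6b1 and Cox8a, which encode further nuclear subunits in their widely expressed forms, were not called in any comparison, and Cox4i1 was at 1523 to 1601 CPM under shBrca2-CM, 1327 to 1695 CPM under shControl-CM, against 1619 and 1870 CPM in growth medium.

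Cox4i2 and Cox6a2, alternative isoforms of complex IV, had few counts and were called in opposite directions under shBrca2-CM. Cox4i2, a form of subunit IV known from lung and from low oxygen, had 6, 19 and 15 counts under shBrca2-CM, 16, 11 and 20 counts under shControl-CM, against 9 and 15 counts in the deeper growth medium libraries. As levels these were 8.68, 23.6 and 13.3 CPM, 10.2, 10.6 and 13.6 CPM, and 1.56 and 3.22 CPM, so that both conditioned media lay above growth medium and overlapped with each other. It rose by 2.27 ± 0.43 under shControl-CM (edgeR, adjusted p = 0.00352) and by 2.69 ± 0.43 under shBrca2-CM (adjusted p = 7.23e-07). Cox6a2, the form of heart and skeletal muscle, was at 8.68, 16.2 and 16.9 CPM under shBrca2-CM, 4.48, 16.4 and 19.0 CPM under shControl-CM, against 25.5 and 25.4 CPM in growth medium. It was called lower under shBrca2-CM (-0.82 ± 0.28, adjusted p = 0.0145), a call lost without shBrca2-CM replicate 1 (adjusted p = 0.104), and its adjusted p under shControl-CM was 0.101. Cox7a1, Cox6b2, Cox7a2l and Ndufa4l2 were not called in any comparison, and Ndufa4l2 was at 0 to 2.90 CPM in the conditioned medium libraries, overlapping the 1.74 and 5.80 CPM in growth medium.

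**Figure D4:**
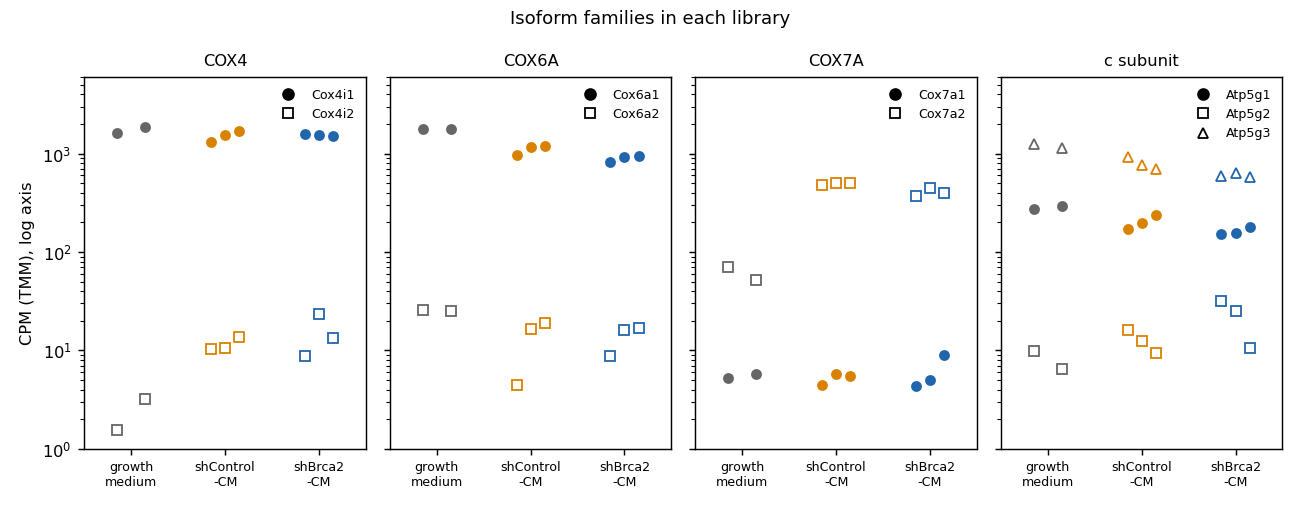
CPM of isoforms of 4 subunit families in each library, on a log axis shared by the panels, with a point per library. Cox4i2 and Cox7a2 are higher in all conditioned medium libraries than in growth medium, Cox4i1 overlaps between shControl-CM and growth medium, and Atp5g3 and Cox6a1 are lower with both conditioned media.

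In complex V, 1 of 5 subunits of the catalytic head rose and 1 fell in each comparison with growth medium, or 40.0% called, near the 37.1% and 37.8% of all genes. Atp5b, the beta subunit that makes ATP, was at 1289, 1360 and 1284 CPM under shBrca2-CM, 1380, 1466 and 1501 CPM under shControl-CM, against 1730 and 1744 CPM in growth medium; its adjusted p was 0.171 under shControl-CM and 0.00849 under shBrca2-CM, in both under the fold threshold. Atp5a1, the alpha subunit, and Atp5d were not called against growth medium either. Atp5c1, the gamma subunit of the rotating stalk, was at 153, 174 and 161 CPM under shBrca2-CM, 177, 148 and 91.7 CPM under shControl-CM, against 280.5 and 221 CPM in growth medium, and fell by 0.86 ± 0.25 under shControl-CM (edgeR, adjusted p = 0.0237) and fell by 0.62 ± 0.15 under shBrca2-CM (adjusted p = 0.000552). Atp5e, the epsilon subunit of the same stalk, was at 480, 462 and 373 CPM under shBrca2-CM, 375, 466 and 556 CPM under shControl-CM, against 306 and 247 CPM in growth medium, and rose by 0.74 ± 0.19 (adjusted p = 0.0158) and 0.66 ± 0.15 (adjusted p = 0.000188). Without growth medium replicate 1 the call of Atp5c1 was lost under shControl-CM (adjusted p = 0.234) and under shBrca2-CM (log2 fold change -0.44), and that of Atp5e was lost under shControl-CM without growth medium replicate 2 (adjusted p = 0.164).

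Atp5g1, Atp5g2 and Atp5g3 encode the same mature c subunit of the proton-driven ring, and under shBrca2-CM they were not called in the same direction. Atp5g3 was at 597, 643 and 584 CPM under shBrca2-CM, 919, 774 and 704 CPM under shControl-CM, against 1259.6 and 1143 CPM in growth medium, in that order and without overlap. It fell by 0.59 ± 0.16 under shControl-CM (edgeR, adjusted p = 0.0194), lost without growth medium replicate 1 (adjusted p = 0.173), and fell by 0.98 ± 0.13 under shBrca2-CM (adjusted p = 9.36e-09). Atp5g1 fell by 0.79 ± 0.15 under shBrca2-CM (adjusted p = 1.21e-05) and was just under the fold threshold under shControl-CM (adjusted p = 0.0475). Atp5g2 was at 31.8, 24.9 and 10.7 CPM under shBrca2-CM, 16.0, 12.6 and 9.51 CPM under shControl-CM, against 9.91 and 6.45 CPM in growth medium, and was called higher under shBrca2-CM (1.35 ± 0.33, adjusted p = 0.00072) but not under shControl-CM (adjusted p = 0.209). Atp5g1 and Atp5g2 have near-identical copies of their transcript ends in annotated transcripts of other genes, so their counts are uncertain.

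Among the small subunits of the membrane part of complex V, 3 of 5 rose under shControl-CM and 2 of 5 under shBrca2-CM, and none fell against growth medium, where 18.2% and 18.6% of all genes were called higher. With 5 members, the 40.0% called under shBrca2-CM was near the 37.8% of all genes called. The ends of Atp5md and Atp5mpl could not be searched for copies in other transcripts, since no reference transcript matched their symbols. Atp5md was at 86.8, 87.1 and 81.7 CPM under shBrca2-CM, 121, 216 and 220.0 CPM under shControl-CM, against 34.9 and 42.1 CPM in growth medium, so that all 3 groups were apart. It rose by 2.26 ± 0.27 under shControl-CM (edgeR, adjusted p = 0.000254) and by 1.15 ± 0.18 under shBrca2-CM (adjusted p = 3.97e-07). Atp5mpl was at 63.7, 59.7 and 51.5 CPM under shBrca2-CM, 51.3, 62.8 and 125 CPM under shControl-CM, and 14.4 CPM in both growth medium libraries. It rose by 2.46 ± 0.36 under shControl-CM (adjusted p = 0.000838) and by 1.999 ± 0.22 under shBrca2-CM (adjusted p = 2.77e-11).

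Between shBrca2-CM and shControl-CM, which asks whether silencing Brca2 in the cancer cells alters the PSCs, few members differed. None was called higher and 3 of 81 were called lower under shBrca2-CM, or 3.70%, where 3.13% of 11035 genes were called (1.58% higher and 1.55% lower). At an unadjusted p under 0.05 there were 12 members (14.8%, against 13.4% of all genes), and DESeq2's likelihood ratio test also called none higher. The median log2 fold change of the members was -0.08, where that of all genes was 0.03, with 27 members above 0 and 54 below. This split rests on the TMM scaling, since with total counts the medians were 0.0296 for the members and 0.14 for all genes. Groups did not overlap for 19 members (23.5%, against 19.8% of all genes).

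The 3 members that fell were Atp5md in complex V and Ndufc2 and Ndufb8, both of the membrane arm of complex I. Atp5md, with the values above, fell by 1.10 ± 0.22 (edgeR, adjusted p = 0.0211). Ndufc2 was at 116, 122 and 103 CPM under shBrca2-CM, 157, 158 and 221 CPM under shControl-CM, against 262 and 236 CPM in growth medium, and fell by 0.63 ± 0.17 (adjusted p = 0.0902). Ndufb8 was at 217, 244 and 219 CPM under shBrca2-CM, 280.0, 353 and 380 CPM under shControl-CM, against 292 and 343 CPM in growth medium, and fell by 0.55 ± 0.14 (adjusted p = 0.0829). For all 3 every shBrca2-CM library lay below every shControl-CM library.

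Against growth medium these 3 members stood differently. Atp5md was higher with both conditioned media. Ndufc2 fell by 1.14 ± 0.15 under shBrca2-CM (edgeR, adjusted p = 8.43e-09) and had a log2 fold change of -0.48 ± 0.18 under shControl-CM (adjusted p = 0.067), under the fold threshold. Ndufb8 had -0.48 ± 0.14 under shBrca2-CM (adjusted p = 0.00491), also under it, and an adjusted p of 0.753 under shControl-CM. All 3 calls between the conditioned media were lost when shBrca2-CM replicate 1, 2 or 3 or shControl-CM replicate 2 was left out (adjusted p = 0.112, 0.145, 0.156 and 0.115 for Atp5md, 0.285, 0.25, 0.308 and 0.302 for Ndufb8, and 0.254, 0.268, 0.349 and 0.170 for Ndufc2), and without shControl-CM replicate 3 Ndufb8 (adjusted p = 0.105) and Ndufc2 (0.145) were lost. In the fits that lost all 3, log2 fold changes were -1.11 to -0.99 for Atp5md, -0.73 to -0.55 for Ndufc2 and -0.60 to -0.51 for Ndufb8. These fits called 1.18% to 1.61% of all genes, against 3.13% in the main fit. Without shControl-CM replicate 1, 7 members were called lower (8.75% of those tested), where 9.09% of all genes were called.

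**Figure D5:**
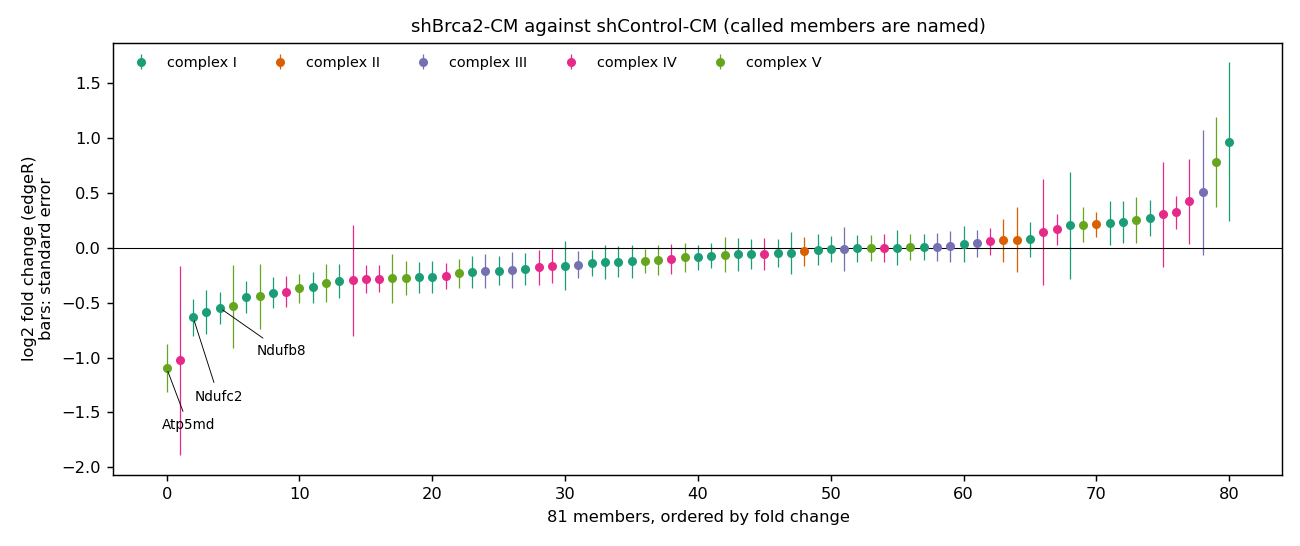
Log2 fold change of the 81 members under shBrca2-CM against shControl-CM, ordered from lowest to highest and colored by complex, with bars for the standard error. Only Atp5md (-1.10), Ndufc2 (-0.63) and Ndufb8 (-0.55) were called; the members at either end with long bars have few counts.

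Several members called against growth medium were not called between the conditioned media. Cox7a2 had a log2 fold change of -0.25 ± 0.12 (edgeR, adjusted p = 0.397), Cox6a1 had -0.28 ± 0.12 (adjusted p = 0.345), and Atp5g3 had -0.37 ± 0.13 (adjusted p = 0.22), although in each of these the shBrca2-CM libraries lay below the shControl-CM libraries. Sdhb, which was not called against growth medium either, had 0.22 ± 0.12 (adjusted p = 0.47), with the shBrca2-CM libraries above. With 3 libraries a group, a p-value that misses the threshold does not show that the media act alike.

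The transcript ends of members can resemble other sequences. Of the 81 members, 78 matched a reference transcript by symbol (all but Atp5md, Atp5mpl and Atp5o). A copy in an annotated transcript of another gene, at 98% identity or more over at least 100 bases of the last 300, was found for 12 of these. Among 11882 genes, 4.51% had one. Sequence outside annotated transcripts was not searched. Of the 12, 1 was called higher and 1 lower under shControl-CM, and 2 higher and 3 lower under shBrca2-CM; of the 66 without a copy, 14 and 10 were called under shControl-CM and 9 and 17 under shBrca2-CM. Among all genes with a copy, 15% were called higher and 19.3% lower under shControl-CM and 15.3% and 19.3% under shBrca2-CM, and among those without one 18.5% and 19% and then 18.9% and 19.3%. The median log2 fold change of the 12 was 0.05 under shControl-CM and -0.01 under shBrca2-CM.

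Other genes of the pathway are given beside the 37.1% of all genes called under shControl-CM and the 37.8% called under shBrca2-CM against growth medium. Of 44 assembly factors, which put the complexes together, 6 rose and 11 fell under shControl-CM and 7 rose and 10 fell under shBrca2-CM, or 38.6% called in both, near the share of all genes. Of 16 enzymes of the tricarboxylic acid cycle and pyruvate entry, 2 rose and 7 fell under shControl-CM and 2 rose and 6 fell under shBrca2-CM (56.2% and 50.0% called), and the median log2 fold change was -0.30 in both. Of the mitochondrial ribosomal proteins, 11 of 74 rose and 17 fell under shControl-CM, and 10 of 75 rose and 14 fell under shBrca2-CM (37.8% and 32.0% called). Of 15 regulators of mitochondrial biogenesis, 3 rose and 3 fell with each (40.0% called). Between the conditioned media edgeR called none of these genes, and an unadjusted p under 0.05 was found for 3 of 43 assembly factors, 0 of 16 cycle enzymes, 6 of 73 ribosomal proteins and 1 of 14 regulators, where 13.4% of all genes passed it.

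Of 20 electron carriers and transporters of adenine nucleotides, 2 rose and 4 fell under shControl-CM and 1 rose and 6 fell under shBrca2-CM (30% and 35.0% called). The genes named from here on were chosen after their values were seen. Slc25a4 and Slc25a5, which exchange ADP and ATP across the inner membrane, both fell. Slc25a4 was at 574 to 655 CPM under shBrca2-CM, 585 to 788 CPM under shControl-CM, against 1192 and 1318 CPM in growth medium, with a log2 fold change of -0.92 ± 0.17 under shControl-CM (edgeR, adjusted p = 0.00283) and -1.06 ± 0.13 under shBrca2-CM (adjusted p = 1.32e-09). Slc25a5 was at 305 to 388 CPM, 303 to 503 CPM, and 798 and 877 CPM, with -1.06 ± 0.20 (adjusted p = 0.00357) and -1.30 ± 0.14 (adjusted p = 9.91e-12).

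Ucp2, a carrier of the inner membrane related to the uncoupling protein of brown fat, was the single gene of this list called between the conditioned media. It was at 31.8, 28.6 and 24.0 CPM under shBrca2-CM, 52.5, 56.0 and 61.8 CPM under shControl-CM, against 24.2 and 20.6 CPM in growth medium. It fell by 1.003 ± 0.21 under shBrca2-CM against shControl-CM (edgeR, adjusted p = 0.0262), rose by 1.33 ± 0.21 under shControl-CM against growth medium (adjusted p = 0.00148) and was not called under shBrca2-CM against growth medium (adjusted p = 0.34). Unlike the member calls, those of Ucp2 were not checked with single libraries left out. Gabpa and Gabpb1, the subunits of GABP, a factor that binds the ETS motif, fell with both conditioned media, Gabpa with log2 fold changes of -0.64 ± 0.21 (adjusted p = 0.0403) and -0.52 ± 0.21 (adjusted p = 0.041), and Gabpb1 with -1.43 ± 0.35 (adjusted p = 0.0124) and -1.31 ± 0.35 (adjusted p = 0.00214). The second Gabpa value is just past the fold threshold. Polg and Polrmt, of the same list of regulators, were called higher with both conditioned media. Nrf1, Yy1 and Esrra, the genes of the other motif factors, were not called in any comparison. Whether GABP had a part in the results was not tested.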

How the data were processed

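RNA from the 8 PSC samples was sequenced by the authors with a variant of MARS-seq, and the deposited table holds unnormalized read counts of each gene. The submitters' processing notes name bcl2fastq, cutadapt, STAR 2.4.2a, HTSeq, DESeq2 and genome build mm10. By which rule the genes were kept, and whether molecular identifiers were counted, is not given in the sources used here. A further per-sample column (1 in all) belonged to none of the listed samples and stayed unused. Replicates are described as separate culture domes.

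Counts were analysed in R 4.3.3 with edgeR 4.0.16 (quasi-likelihood test after TMM scaling, on genes whose counts summed to 10 or more in the comparison, with Benjamini-Hochberg adjustment over all of them). Each pair of groups was fitted alone. Standard errors are the log2 fold change over the square root of the F statistic. The fit was also run on simulated data, and no result of that run is used here. The total count of a library limits the precision of low genes, most in the smallest of 655996 counts. Named members were core and catalytic subunits and isoform pairs, plus up to 8 called members with the largest and up to 8 with the smallest log2 fold change in each comparison; others named are stated. The values of 1 member are not reported here, though the counts include it. Members and lists were chosen with earlier results of these data known. Alternatives were DESeq2 1.42.0 (likelihood ratio test, size factors), total counts, other filters, a replicate block, a joint fit of all groups, thinning to the smallest library, stricter thresholds and leaving out each library. Promoters and gene starts came from RefSeq, and transcript ends from GENCODE on GRCm39, without coordinates.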

Additional observations from a re-analysis of the deposited data

How the results depend on the processing

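Under the alternatives, no named value that was called changed direction. With total counts in place of TMM, the median log2 fold change of all genes moved from 0.03 to 0.14 between the conditioned media and from -0.10 to -0.21 under shControl-CM against growth medium, and that of the members moved with it, to 0.0296 and -0.15. At this setting 1 member was called lower between the conditioned media. Under shControl-CM against growth medium 33 members were called, 18 of them lower. At an adjusted p under 0.05 and a log2 fold change over 1, 1 member was called lower between the conditioned media, 9 higher and 1 lower under shControl-CM, and 9 higher and 4 lower under shBrca2-CM against growth medium. Leaving out each library in turn gave 0 to 7 members called lower between the conditioned media (medians -0.153 to -0.0452), 11 to 22 higher and 5 to 14 lower under shControl-CM (medians -0.0111 to 0.0516), and 15 to 16 higher and 18 to 22 lower under shBrca2-CM (medians -0.0309 to 0.0202); where growth medium was left with 1 library, it was assumed to vary like the other group.

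Same-numbered samples share only a number, with correlations of their deviations from -0.02 to 0.11. With the replicate block, 0 members were called higher and 2 lower between the conditioned media (Ndufc2 lost, adjusted p = 0.136), 18 higher and 15 lower under shControl-CM (Ndufs7, Sdha and Uqcrc1 lost, with log2 fold changes of 0.38, -0.37 and 0.44), and 15 higher and 19 lower under shBrca2-CM (Sdhc lost, -0.43). Thinning every library to the smallest total left 22 of 24 named calls under shControl-CM and 24 of 27 under shBrca2-CM. It ended those of Ndufb8 between the conditioned media (log2 fold change -0.51), of Ndufs7 (0.44) and Sdha (-0.44) under shControl-CM, and of Atp5c1 (-0.499), Cox6a2 (-0.66) and Sdha (-0.42) under shBrca2-CM, and 38% of members and 27.8% of all genes were then called under shControl-CM, and 40% and 31.8% under shBrca2-CM. Total counts ended the named calls of Ndufb8 and Ndufc2 between the conditioned media, of Ndufs7 and Uqcrc1 under shControl-CM and of Sdha under shBrca2-CM, and one fit of all groups ended those of Ndufb2 under shControl-CM and Cox6a2 under shBrca2-CM. Depth limits the members with few counts, such as Uqcrb and Cox4i2, in the conditioned medium libraries.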
